A study of Mus musculus with 12 samples.

Results

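The 10 genes described here belong to the BCL2 family, the proteins that set whether a cell's mitochondria release their death signals. They were Bcl2, Bcl2l1, Mcl1, Bcl2a1a, Bcl2a1b, Bcl2a1d, Bak1, Bcl2l11, Bid and Bad, found by gene symbol in the GENCODE M21 mouse annotation among the 55487 gene identifiers of 2 deposited count tables. All 10 were present in both tables and all 10 passed the filter on low counts in both. RNA came from OT-1 CD8+ T cells, mouse T cells that carry 1 transgenic receptor for a peptide of ovalbumin. The Female and Male groups were spleen cells of each sex, activated with beads that carry anti-CD3 and anti-CD28 and with mouse recombinant IL2 for 3 days. The WT and KD groups were both male and came from a separate batch of cells. WT cells were electroporated with a guide RNA without Cas9, and KD cells with Cas9 and a guide RNA against KDM5D, a histone demethylase encoded on the Y chromosome; both were then cultured for 3 days. Each group had 3 samples. KD and WT therefore differ in Cas9 as well as in Kdm5d, and the contributions of these cannot be told apart. The sources used here give neither an age, nor the mice behind each sample, nor whether the electroporated cells were activated in the same way.

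BCL2 proteins share short homology domains and act on one another by binding at the outer mitochondrial membrane. The guardians BCL2, BCL-XL (from Bcl2l1), MCL1 and A1 (from the Bcl2a1 copies) hold back death. The effectors BAK and BAX open the membrane and release cytochrome c, which starts the caspase cascade. The BH3-only proteins, among them BIM (from Bcl2l11), BID and BAD, carry the BH3 domain as their main shared feature and either block guardians or activate effectors. In T cells, BIM and its restraint by BCL2 and MCL1 are known for controlling the loss of lymphocytes after activation and after cytokine withdrawal.

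The sequence that these proteins share is the core of the BH3 domain, and it is shown because it joins guardians, effectors and BH3-only members in 1 family while their coding bases differ widely. A search of the coding sequences for a leucine codon, 3 further codons, a codon for glycine, alanine or serine and an aspartate codon found 1 match in each of 7 members. It found none in the 3 Bcl2a1 copies. The coding strand is printed 5′ to 3′ from GENCODE M21 transcripts, with the leucine and aspartate codons in capitals.
Bcl2, chr1:106712581-106712604, minus strand: accCTCcgccgggctgggGATgac
Bcl2l1, chr2:152829703-152829726, minus strand: gcgCTGagagaggcaggcGATgag
Mcl1, chr3:95659433-95659456, plus strand: accCTGcggcgcgtgggcGACggc
Bak1, chr17:27022537-27022560, minus strand: cagCTTgctctcatcggaGATgat
Bcl2l11, chr2:128147147-128147170, plus strand: gagCTGcggcggatcggaGACgag
Bid, chr6:120897295-120897318, minus strand: catCTCgcccaaataggcGATgag
Bad, chr19:6950789-6950812, plus strand: gagCTCcgaaggatgagcGATgag
Each of these stretches lies within a single coding exon, and coordinates here and throughout are GRCm38 (mm10).

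The libraries held 78748647 to 110803318 counts each. Levels are given as CPM, a gene's count scaled to a common library size, on TMM-scaled library sizes, and each table was tested on its own 6 samples with edgeR's quasi-likelihood test, with Benjamini-Hochberg adjustment over all genes of that table and a threshold of 0.05. Kdm5d was 50.9 CPM in WT and 22.0 in KD, a log2 fold change of -1.21 with an adjusted p of 3.13e-08, was 50.9 CPM in Male, and had 0 to 2 counts in the Female libraries. The 7 CD8 T cell markers were expressed in all groups, with summed levels of 2112 to 2132 CPM in Female, 2123 to 2155 in Male, 2605 to 2658 in WT and 2309 to 2372 in KD. Of these 7, 1 was higher and 3 were lower in Male than in Female, and none was higher and 4 were lower in KD than in WT. The 20 markers of other cell types summed to 5.50 to 7.77 CPM in Female, 9.16 to 10.8 in Male, 14.4 to 17.3 in WT and 9.92 to 10.3 in KD. Of these, Ms4a1, S100a8, S100a9, Hbb-bs and Hba-a1 had 0 counts in every library. In Male against Female 7 of the 20 were tested, and 2 were higher in Male and 1 was lower. In KD against WT 9 were tested, and 5 were lower in KD and none was higher. The highest was Foxp3 in Female (2.82 CPM) and Male (4.38 CPM), and Epcam in WT (6.71 CPM) and KD (4.82 CPM). The summed levels of the other-cell markers differed without overlap in both comparisons, and those of the CD8 markers in KD against WT, and their part in the results was not tested. In bulk RNA, fewer cells of a type and less RNA per cell cannot be told apart.

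Among the members, Bcl2 had the highest level per length in every group and Bcl2a1a the lowest. With counts divided by the merged exon length, Bcl2 stood at 135.1 ± 1.74 CPM per kilobase in Female (SD, n = 3), 109 ± 1.43 in Male, 86.3 ± 0.965 in WT and 81.7 ± 0.507 in KD. Mcl1 was second in all 4 groups, at 62.9 ± 2.35 CPM per kilobase in Female, 48.4 ± 1.34 in Male, 62.4 ± 2.32 in WT and 53.9 ± 0.0208 in KD. The next place differed between groups. In Female it was held by Bcl2l11 at 32.8 ± 0.0795 CPM per kilobase, ahead of Bak1 at 24.6 ± 0.274 and Bcl2l1 at 17.8 ± 0.115. In Male, WT and KD it was held by Bak1, at 36.4 ± 0.611, 56.0 ± 0.670 and 48.5 ± 2.49 CPM per kilobase, followed by Bcl2l1 and then Bcl2l11. Bid, Bad, Bcl2a1b, Bcl2a1d and Bcl2a1a followed in that order in all 4 groups. The samples of neighbours in this order overlapped only in KD, for Bcl2l1 with Bcl2l11 (19.9 ± 0.676 and 19.6 ± 0.476 CPM per kilobase) and for Bad with Bcl2a1b (4.79 ± 0.635 and 4.44 ± 1.06).
The middle of this order depends on the length used. With the longest annotated transcript in place of merged exons, Bcl2l1 stood above Bak1 in Female (31.7 against 24.8 CPM per kilobase) and the samples of both genes overlapped in Male (36.7 CPM per kilobase each). In CPM without a length, Bcl2 ranked 36th of 20208 tested genes in Female and 57th in Male, and 90th and 104th of 20413 in WT and KD.

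**Figure D1:**
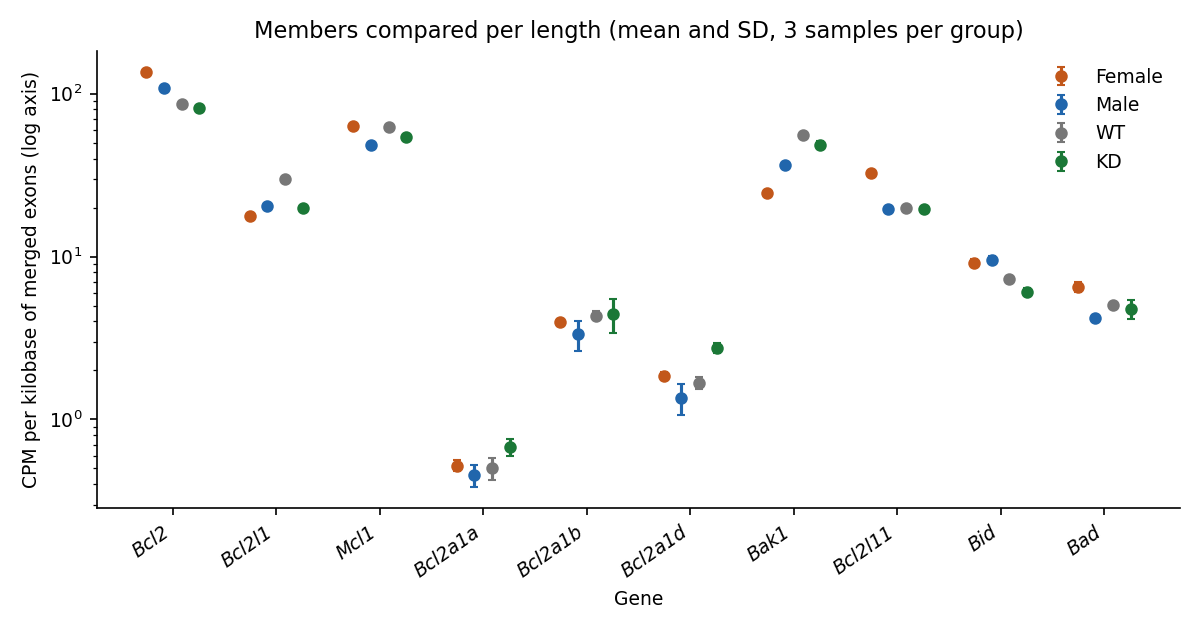
CPM per kilobase of merged exons on a log axis for the 10 members, with points for group means and bars for the SD of 3 samples in Female, Male, WT and KD. Bcl2 lies highest in each group and the 3 Bcl2a1 copies lie lowest, while Bcl2l11 is above Bak1 in Female alone.

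Male cells were compared with Female cells, the question being how the sexes differ in activated cells of the same receptor. Male cells had lower levels of Bcl2l11, Bad, Mcl1 and Bcl2 and higher levels of Bak1 and Bcl2l1 than Female cells. Of the 10 members, 2 were higher in Male and 4 lower at the threshold, and 4 did not pass it (Bid and the 3 Bcl2a1 copies). Over all 20208 genes tested, 49.8% passed (23.5% higher in Male, 26.3% lower), so that 6 of 10 is not far from the background. That background includes genes of low count, and in a fit of the 13928 genes with a mean CPM of at least 1, 9389 passed. The median log2 fold change was -0.28 over the members and 0.011 over all genes, and the median size was 0.34 over the members against 0.33. The CPM of the groups did not overlap for 7 of the 10 members, against 58.3% of all genes tested. The labels do not say whether samples are separate mice, so p-values measure the spread between these samples only.

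**Figure D2:**
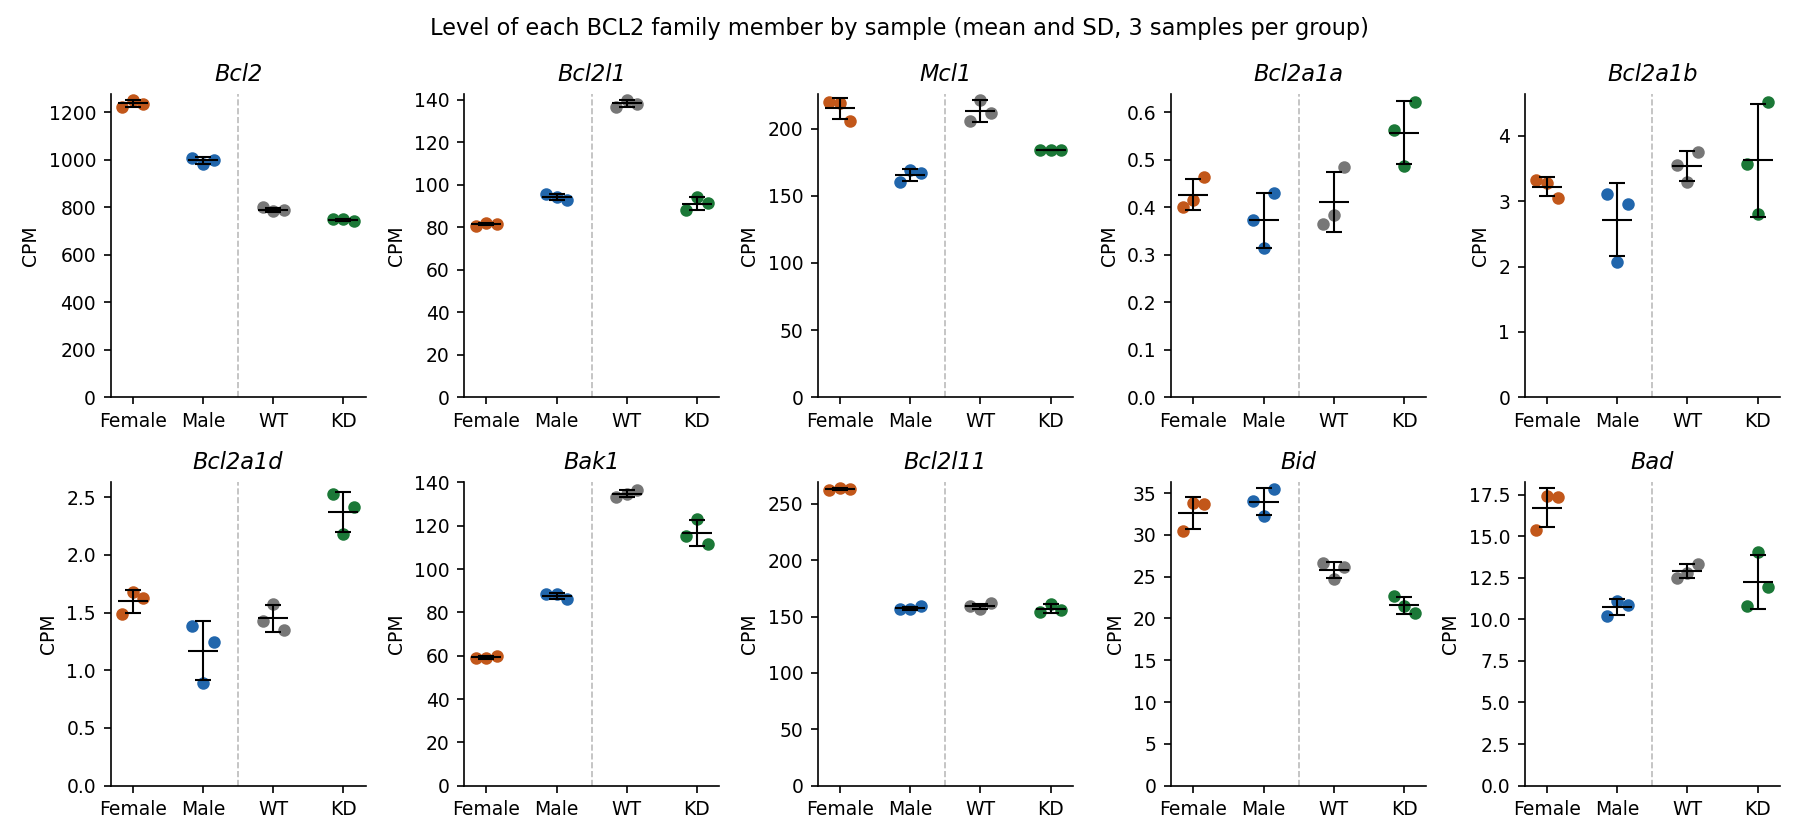
CPM of each member in each of the 12 samples, with horizontal lines for the group mean and bars for the SD of 3 samples; each panel starts at 0 and the dashed line parts the 2 tables. Bcl2l11 is highest in the 3 Female samples, between 262.5 and 263.7 CPM, and lies between 154 and 162 CPM in the other 9. The 2 tables were scaled separately and came from separate batches of cells, and levels were not tested between them.

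Of the guardians, Bcl2 (ENSMUSG00000057329, chr1:106538178-106714274, minus strand) was 1222, 1254 and 1237 CPM in the 3 Female samples and 1008, 983 and 1001 CPM in the 3 Male samples. Every Male sample was below every Female one. Bcl2 fell by 19.4% in Male, a log2 fold change of -0.31 with a standard error of 0.016 and an adjusted p of 6.79e-08. An antisense gene, D630008O14Rik, overlaps 558 bases (6.09%) of its exons and moved the other way, from 4.42 to 6.90 CPM (log2 fold change 0.64, adjusted p 0.000287). Whether the counting used strand is not given in the sources used here.
Mcl1 (ENSMUSG00000038612, chr3:95658788-95663176, plus strand), a short-lived guardian that binds BIM and BAK, was 220.2, 219 and 206 CPM in Female and 160.3, 169 and 167 CPM in Male. The groups did not overlap. Mcl1 fell by 23.1%, with a log2 fold change of -0.38, a standard error of 0.032 and an adjusted p of 3.21e-06.
Bcl2l1 (ENSMUSG00000007659, chr2:152780668-152831728, minus strand), which encodes BCL-XL and in its short splice form a pro-death protein, went in the opposite direction. It was 80.8, 81.8 and 81.6 CPM in Female and 95.5, 94.3 and 92.9 CPM in Male. Its log2 fold change was 0.21 with a standard error of 0.023 and an adjusted p of 2.66e-05. Gene-level counts do not separate its 9 annotated transcripts.

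The effector Bak1 (ENSMUSG00000057789, chr17:27019810-27029009, minus strand) had the largest rise of the 10 members. It was 59.0, 58.8 and 60.0 CPM in the Female samples and 88.5, 88.6 and 86.0 CPM in the Male samples, with no overlap. The log2 fold change was 0.57 with a standard error of 0.025 and an adjusted p of 2.61e-08. Bak1 shares 177 and 437 exonic bases with Ggnbp1 on the other strand, which carries 2 identifiers, and neither of those passed the test (log2 fold changes 0.17 and 0.33, adjusted p 0.670 and 0.126).
Bax, the other main effector, was not among the members and stood at 67.7 ± 1.09 CPM in Female and 64.5 ± 1.06 CPM in Male (SD, n = 3). It missed the threshold with a log2 fold change of -0.070 and an adjusted p of 0.0506, and it passed in 4 of 17 alternative fits, among them the one without Male replicate 1 (adjusted p 0.0422).

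The BH3-only member Bcl2l11 (ENSMUSG00000027381, chr2:128126038-128162547, plus strand) differed more than any other member. The 3 Female samples held 262.5, 264 and 263 CPM and the 3 Male samples 157, 156 and 159 CPM. The samples of a group nearly coincided, and the groups were far apart. Bcl2l11 fell by 40.2% in Male, a log2 fold change of -0.74 with a standard error of 0.020 and an adjusted p of 8.55e-10.
Bad (ENSMUSG00000024959, chr19:6941861-6951899, plus strand), a BH3-only protein that growth factor signals switch off by phosphorylation, was 15.3, 17.4 and 17.4 CPM in Female and 10.2, 11.1 and 10.9 CPM in Male. It fell by 35.7%, with a log2 fold change of -0.64, a standard error of 0.068 and an adjusted p of 2.16e-05. Its opposite-strand neighbour Gpr137, which shares 524 exonic bases, was 10.7 CPM in Female and 10.5 in Male and did not pass (adjusted p 0.744).
Bid (ENSMUSG00000004446, chr6:120891930-120916853, minus strand), which caspase-8 cleaves to join the death receptors to mitochondria, was 30.4, 33.8 and 33.7 CPM in Female and 34.1, 32.3 and 35.5 CPM in Male. The groups overlapped, and the log2 fold change of 0.058 (standard error 0.052) did not pass, with an adjusted p of 0.392. Bid shares 628 exonic bases (17.7%) with Bcl2l13 on the other strand, which was lower in Male (log2 fold change -0.38, adjusted p 4.98e-06).

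The remaining BH3-only genes of the family were read beside these members, in a grouping by role made after the values were seen. Of the 8 BH3-only genes, Hrk had 0 counts in all 12 libraries. Of the 7 tested, 6 were lower in Male, none was higher, and Bid did not pass. Over all genes tested, 26.3% were lower and 23.5% higher. In the fit of the 13928 genes with a mean CPM of at least 1, 4773 were lower and 4616 higher. The grouping leaves out the more distant relatives Bnip3 and Bnip3l. Bnip3 was higher in Male (log2 fold change 0.88), and Bnip3l did not pass (adjusted p 0.131). Bmf, a BH3-only gene known in lymphocyte homeostasis, fell from 34.5 ± 1.87 to 10.3 ± 0.881 CPM (log2 fold change -1.74, adjusted p 1.01e-08). Bbc3, which encodes PUMA, fell from 50.2 ± 1.92 to 20.6 ± 1.42 CPM (-1.29, adjusted p 1.81e-08). Pmaip1, which encodes the MCL1-binding protein NOXA, fell from 53.3 ± 1.55 to 29.3 ± 0.715 CPM (-0.86, adjusted p 1.96e-08).
Bik, at 2.51 ± 0.537 and 1.74 ± 0.245 CPM, passed narrowly with a log2 fold change of -0.53 and an adjusted p of 0.0431, and the samples of both groups overlapped. Its call was lost in 8 of the 17 alternative fits, with adjusted p of 0.147 without Female replicate 1, 0.116 without Female replicate 3, 0.128 without Male replicate 1, 0.116 without Male replicate 3 and 0.0872 with the replicate block.

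**Figure D3:**
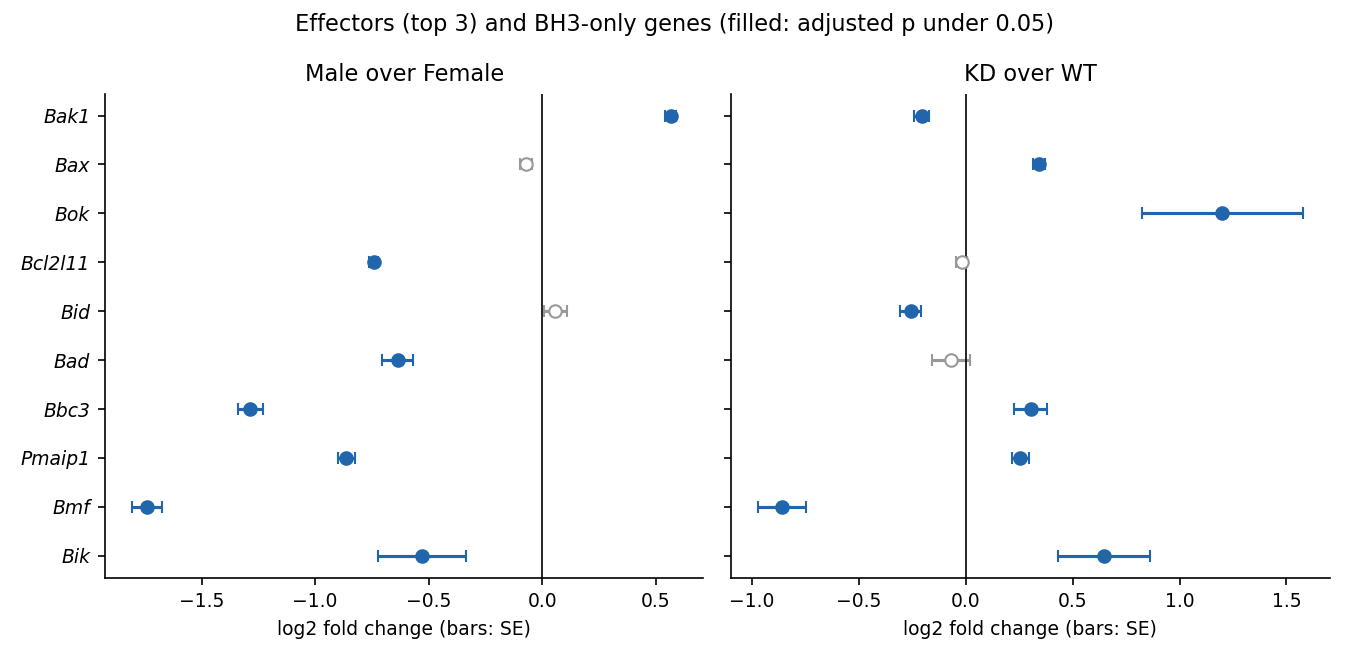
Log2 fold change with its SE for the effectors (top 3 rows) and the BH3-only genes, Male over Female at left and KD over WT at right; filled points had an adjusted p under 0.05, and Bok was not tested in the first comparison. At left all filled BH3-only points lie below 0 and Bak1 lies at 0.57, and at right Bak1, Bid and Bmf are the filled points below 0.

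The promoter of Bcl2l11 is shown because its gene had the largest difference between the sexes among the 10 members and Foxo3, a transcription factor known to act on it in lymphocytes, is among the genes measured. RefSeq gives 2 promoter windows for the gene. The stretch is the first part of the one on chr2:128125788-128125867 (GRCm38.p6, plus strand), which starts 250 bases before the annotated start, with a match to the FOXO site GTAAACA in capitals.
Bcl2l11 promoter: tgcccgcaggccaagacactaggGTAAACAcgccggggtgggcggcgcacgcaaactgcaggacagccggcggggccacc
The match begins 227 bases before that start, and neither the other window of Bcl2l11 nor any window of another member held one. Of 32851 promoter windows of the same length, 3.65% held that motif on either strand. All windows of the 10 members were searched, so 1 match among them is not far from that share. A search of both strands for TTCNNNGAA, a STAT5-type site held by 8.30% of windows, found none in the members' windows. The NF-kB consensus, held by 8.46%, was found in 1 of the 3 windows of Bcl2l1 and in no other member. These are matches of letters, and no binding was measured. Foxo3 was lower in Male (log2 fold change -0.79) and higher in KD (0.32), and Bcl2l11 did not pass in KD (-0.019). Foxo1 was lower in Male (-0.47) and in KD (-0.26). A link of either gene to Bcl2l11 was not tested.

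Counts of Bcl2l11 were set against those of the guardians Bcl2 and Mcl1 within each library, which removes library scaling. No ratio was taken to Bcl2l1, whose log2 fold change was 0.21 in Male against Female and -0.60 in KD against WT. The log2 ratio of Bcl2l11 to Bcl2 counts was -2.22, -2.25 and -2.23 in the Female samples and -2.69, -2.65 and -2.65 in the Male samples. All Male ratios were below all Female ones, and the difference of means was -0.43, or 1.35-fold. Against Mcl1 the log2 ratio was 0.25, 0.27 and 0.36 in Female and -0.033, -0.11 and -0.073 in Male, a difference of -0.36. Both differences had a two-sided exact permutation p of 0.1, the smallest that 3 against 3 samples allows. Such differences follow from the log2 fold changes already given for these genes and are not separate evidence. These are ratios of counts, not of protein, and genes of unequal length are not compared in level by them.

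**Figure D4:**
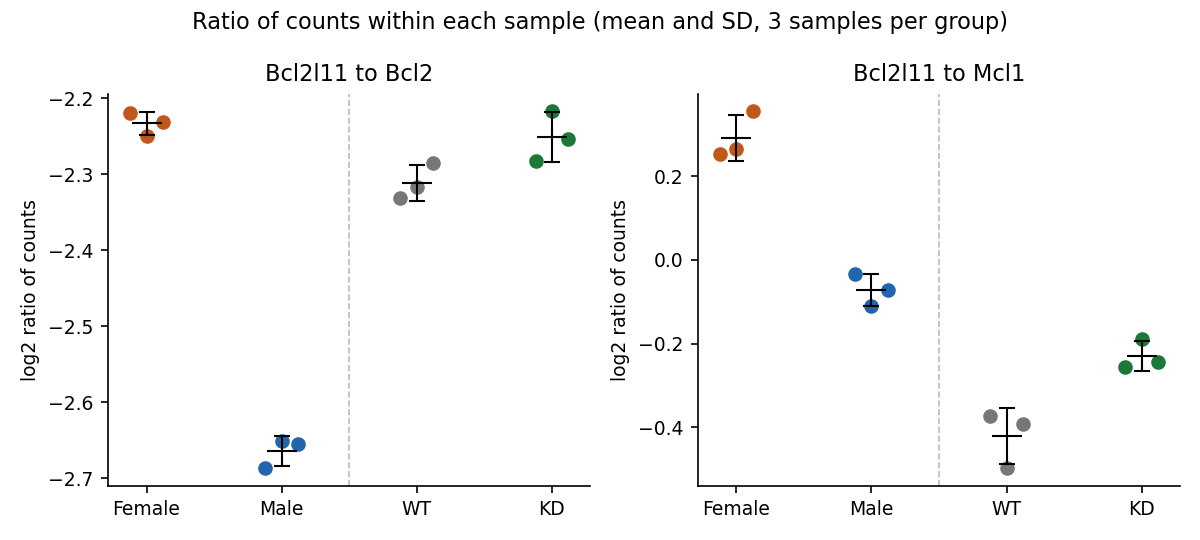
Log2 ratio of counts of Bcl2l11 to Bcl2 (left) and of Bcl2l11 to Mcl1 (right) within each sample, with the mean and SD of 3 samples per group; the axes do not start at 0 because the values are logs. The Male samples lie below the Female samples in both panels, and the KD samples lie above the WT samples.

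Genes around the family differed in both directions between the sexes. Among the cytokine receptors and transcription factors that feed the family, 6 of 16 were higher in Male and 9 lower. Il7r, the receptor chain for the survival cytokine IL-7, fell from 139 to 24.3 CPM (log2 fold change -2.51, adjusted p 1.11e-11). Il2rb, a receptor chain for IL-2 and IL-15, rose from 772 to 1301 CPM (0.75, adjusted p 2.14e-10). Foxo3 fell from 225 to 130.3 CPM (-0.79, adjusted p 2.72e-09), and Nfkbia, the inhibitor of NF-kB, fell by 44.1%.
Of 17 genes of the apoptosome, caspases and their inhibitors, 8 were higher and 4 lower. Cytochrome c (Cycs) rose from 36.1 to 60.5 CPM, whereas its partner Apaf1 fell from 145 to 120 CPM. Birc2, an inhibitor of apoptosis protein, fell by 31.9% and Casp2 by 18.1%.
Of 11 death receptor genes, 4 were higher and 4 lower. Fasl rose from 23.2 to 42.1 CPM and Casp8 from 95.6 to 151 CPM, while the receptor Fas fell from 16.9 to 8.76 CPM and the adaptor Traf2 from 61.6 to 40.1 CPM. Of 12 binding partners and regulators of stability, 7 were higher and 4 lower, with the survival kinases Pim1 and Pim2 lower (log2 fold changes -0.36 and -0.55) and Bcap31 and the BAD-binding 14-3-3 gene Ywhaz higher (0.50 and 0.25). In the wider BCL2 family, 1 of 12 tested genes was higher in Male, Bnip3 at a log2 fold change of 0.88, and 5 were lower. Bcl2l10 had 0 counts in every Male library and 0 to 6 in Female. These shares stand beside the 49.8% of all genes that passed, and beside 9389 of the 13928 genes with a mean CPM of at least 1.

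KD was compared with WT to ask what follows in male cells when Kdm5d is reduced. KD cells had lower levels of Bcl2l1, Bid, Mcl1, Bak1 and Bcl2 than WT cells, and a higher count for the copy Bcl2a1d, whereas Bcl2l11 and Bad did not pass. Of the 10 members, 1 was higher in KD and 5 were lower. Over all 20413 genes tested, 35.1% passed (16.8% higher in KD, 18.4% lower). That background includes genes of low count, and in a fit of the 13944 genes with a mean CPM of at least 1, 6966 passed. The median log2 fold change was -0.075 over the members and 0.012 over all genes, with a median size of 0.21 for both. The CPM of the groups did not overlap for 7 members, against 46.8% of all genes tested.

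**Figure D5:**
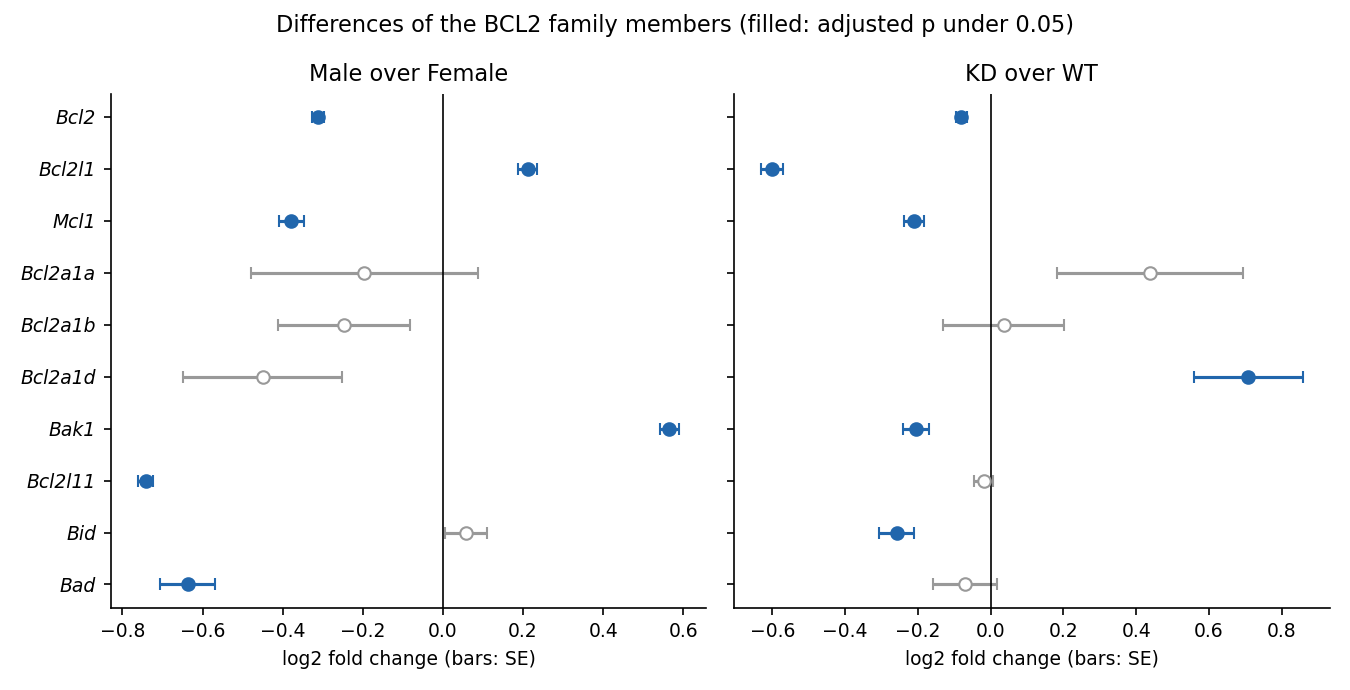
Log2 fold change of each member with its SE, Male over Female at left and KD over WT at right; filled points had an adjusted p under 0.05. Bcl2l11 lies at -0.74 at left and at -0.019 at right, and Bcl2l1 lies at 0.21 at left and at -0.60 at right.

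Among the guardians, Bcl2l1 had the largest fall of the members. It was 137, 140.0 and 138 CPM in the WT samples and 88.0, 94.2 and 91.3 CPM in the KD samples, so that the groups were far apart. Bcl2l1 fell by 34.1%, with a log2 fold change of -0.60, a standard error of 0.030 and an adjusted p of 2.11e-07.
Mcl1 was 206, 222 and 212 CPM in WT and 184 CPM in each KD sample. It fell by 13.6% (log2 fold change -0.21, standard error 0.028, adjusted p 0.000182).
Bcl2 differed least among the called members. It was 800.0, 783 and 788 CPM in WT and 750.2, 750.4 and 742 CPM in KD. The groups did not overlap, and Bcl2 fell by 5.38% (log2 fold change -0.080, standard error 0.015, adjusted p 0.00226). Its antisense neighbour D630008O14Rik was 4.04 CPM in WT and 4.24 in KD and did not pass (adjusted p 0.654).

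The effectors differed in direction from one another. Bak1 was 133, 135 and 136 CPM in WT and 115, 123 and 112 CPM in KD, with a log2 fold change of -0.21, a standard error of 0.036 and an adjusted p of 0.00119. One of the 2 identifiers of its opposite-strand neighbour Ggnbp1 was higher in KD (6.72 to 10.9 CPM, log2 fold change 0.69, adjusted p 0.00428). Bax rose from 116 ± 2.52 to 147 ± 3.16 CPM (SD, n = 3), with a log2 fold change of 0.34, a standard error of 0.027 and an adjusted p of 5.46e-06. Bok, an effector-like relative, was below 0.5 CPM in every WT and KD sample. Its log2 fold change of 1.20 had an adjusted p of 0.0317, and the call was lost in 7 of 15 alternative fits, with adjusted p of 0.0807 without WT replicate 1, 0.0958 without WT replicate 2, 0.122 without KD replicate 1, 0.0678 without KD replicate 2 and 0.0653 with the replicate block.

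Of the BH3-only members, Bcl2l11 was 159, 157 and 162 CPM in WT and 154, 161 and 156 CPM in KD. The groups overlapped, and the log2 fold change of -0.019 with a standard error of 0.025 had an adjusted p of 0.623. Bid was 26.6, 24.7 and 26.1 CPM in WT and 22.7, 21.5 and 20.6 CPM in KD. Bid fell by 16.4%, with a log2 fold change of -0.26, a standard error of 0.049 and an adjusted p of 0.00215. Bad was 12.5, 12.8 and 13.3 CPM in WT and 10.8, 14.03 and 11.9 CPM in KD, with overlapping groups and an adjusted p of 0.604.
Across the 7 BH3-only genes tested, 3 were higher in KD, 2 were lower and 2 did not pass. Over all genes tested, 16.8% were higher and 18.4% lower. In the fit of the 13944 genes with a mean CPM of at least 1, 3396 were higher and 3570 lower. Bnip3 and Bnip3l, outside this grouping, were higher in KD (log2 fold changes 0.27 and 0.24). Bmf fell from 8.33 ± 0.767 to 4.58 ± 0.575 CPM (log2 fold change -0.86, adjusted p 0.000184). Pmaip1 rose from 41.3 ± 0.342 to 49.3 ± 2.28 CPM (0.26, adjusted p 0.000618), and Bbc3 from 15.96 ± 1.94 to 19.7 ± 0.571 CPM (0.30, adjusted p 0.0123). Bik was 1.19 ± 0.232 CPM in WT and 1.86 ± 0.422 in KD (0.65, adjusted p 0.0414). Its call was lost without WT replicate 1 (adjusted p 0.112), WT replicate 2 (0.134), KD replicate 2 (0.0620) or KD replicate 3 (0.160). It was also lost with no low-count filter (adjusted p 0.0686).
The log2 ratio of Bcl2l11 to Bcl2 counts was -2.33, -2.32 and -2.28 in WT and -2.28, -2.22 and -2.25 in KD. The groups just failed to overlap, with -2.285 as the highest WT value and -2.282 as the lowest KD value, and the difference of means was 0.060. Against Mcl1 the ratio was -0.37, -0.50 and -0.39 in WT and -0.26, -0.19 and -0.24 in KD, a difference of 0.19. The two-sided exact permutation p was again the smallest possible, 0.1, for both.

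The 3 Bcl2a1 copies, which encode near-identical forms of the guardian A1 that NF-kB induces in activated lymphocytes, were read last because their counts cannot be cleanly assigned. Bcl2a1a (ENSMUSG00000102037, chr9:88956900-88962419, plus strand), Bcl2a1b (ENSMUSG00000089929, chr9:89199209-89207827, plus strand) and Bcl2a1d (ENSMUSG00000099974, chr9:88723285-88731914, minus strand) have coding sequences of 519 bases that are 97.9% to 98.8% identical. All 3 were equal at all but 12 positions, and 6 of those lay in the first 90 coding bases. That stretch is printed because it holds the densest differences by which reads could be told apart, with the differing bases in capitals.
Bcl2a1a, chr9:88957051-88957140, plus strand: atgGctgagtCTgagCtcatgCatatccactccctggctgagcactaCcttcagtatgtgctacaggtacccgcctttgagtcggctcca
Bcl2a1b, chr9:89199360-89199449, plus strand: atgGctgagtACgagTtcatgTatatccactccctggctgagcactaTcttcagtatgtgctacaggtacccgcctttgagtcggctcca
Bcl2a1d, chr9:88731630-88731719, minus strand: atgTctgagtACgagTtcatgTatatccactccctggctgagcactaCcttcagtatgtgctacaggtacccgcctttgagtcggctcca
The longest run with no difference was 217 bases. Of the 31-base words in each gene's transcripts, 79.6% for Bcl2a1a, 88.8% for Bcl2a1b and 89.1% for Bcl2a1d also occurred in another gene. Another annotated gene, Gm29094, covers 49.1% of the exonic bases of Bcl2a1b on the same strand. How reads that match several copies were counted is not given in the sources used here.

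The copies were the lowest members, with 29 to 437 counts per library. Between the sexes none passed the test. Bcl2a1a was 0.401, 0.415 and 0.463 CPM in Female and 0.374, 0.313 and 0.430 CPM in Male (log2 fold change -0.20, adjusted p 0.608). Bcl2a1b was 3.33, 3.29 and 3.06 CPM in Female and 3.11, 2.07 and 2.96 CPM in Male (-0.25, adjusted p 0.246). Male replicate 2 was the lowest library for all 3 copies. Bcl2a1d was 1.49, 1.68 and 1.62 CPM in Female and 1.38, 0.886 and 1.24 CPM in Male (-0.45, adjusted p 0.0877), which did not overlap but passed the threshold only when all 12 samples shared 1 fit (-0.47, adjusted p 0.0340).
In the knockdown table, Bcl2a1d was 1.43, 1.58 and 1.35 CPM in WT and 2.53, 2.18 and 2.41 CPM in KD. It rose with a log2 fold change of 0.71, a standard error of 0.15 and an adjusted p of 0.00394, and no other member passed the test in that direction. Bcl2a1a was 0.366, 0.384 and 0.484 CPM in WT and 0.563, 0.488 and 0.621 CPM in KD, with no overlap but an adjusted p of 0.229. Bcl2a1b was 3.56, 3.30 and 3.76 CPM in WT and 3.56, 2.80 and 4.53 CPM in KD, with an adjusted p of 0.900.
Summed over the 3 copies, the level was 5.25 ± 0.122 CPM in Female and 4.26 ± 0.861 in Male (log2 fold change -0.30, standard error 0.15, adjusted p 0.119). It was 5.401 ± 0.172 CPM in WT and 6.56 ± 1.05 in KD (0.28, standard error 0.12, adjusted p 0.0971). The call for Bcl2a1d in KD was therefore not made for the sum. The counts of Bcl2a1d stood to those of Bcl2a1b at 0.401, 0.478 and 0.359 in WT and at 0.709, 0.780 and 0.533 in KD, so that all KD libraries were above all WT ones.

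The pathway lists around the members also divided in KD. Their counts stand beside the 35.1% of all genes tested that passed (16.8% higher, 18.4% lower). Of the 13944 genes with a mean CPM of at least 1, 6966 passed. In the wider BCL2 family 8 of 12 tested genes were higher and 1 was lower, Bmf. Bnip3 and Bnip3l, mitochondrial proteins of mitophagy, rose with log2 fold changes of 0.27 and 0.24, beside Bax. Bcl2l2, which encodes the guardian BCL-W, was 17.7 ± 0.599 CPM in WT and 20.0 ± 1.39 in KD (0.18, adjusted p 0.0358). That call was lost without WT replicate 1 (adjusted p 0.108), WT replicate 2 (0.107), KD replicate 1 (0.0971) or KD replicate 3 (0.127). It was also lost with limma-voom (adjusted p 0.0544) and with no low-count filter (0.0663).
Of the 16 survival inputs, 4 were higher and 7 lower. Il2rb fell from 2265 to 1539 CPM (log2 fold change -0.56, adjusted p 1.07e-07) and Jak1, its kinase, from 531 to 419 CPM, while Jak3 rose from 271 to 340 CPM and Foxo3 from 134 to 168 CPM. Of the 11 death receptor genes, 2 were higher and 6 lower. The higher ones were Fas, from 5.46 to 9.54 CPM (log2 fold change 0.81), and Tnfrsf10b, from 24.7 to 34.8 CPM (0.49). Fasl fell from 68.5 to 29.4 CPM (-1.22, adjusted p 3.13e-08), Casp8 from 160.0 to 128 CPM, its inhibitor Cflar from 179 to 145 CPM and Tnfrsf1b from 226 to 187 CPM.
Of the 17 apoptosome, caspase and inhibitor genes, 5 were higher and 4 lower. Birc5, an inhibitor of apoptosis protein that also acts in cell division, rose from 109 to 123 CPM, and Birc3 fell by 26.3%. Of the 12 partners and regulators of stability, 3 were higher and 4 lower, with Pim1 and Pim2 higher (0.23 and 0.17) and Dynll1, a light chain that binds BIM, and Ywhaz lower (-0.33 and -0.15).

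The genes whose 2 log2 fold changes lay nearest to those of a member were looked up among 10253 protein-coding genes. For Bcl2 they were Dlg1, Mutyh and Cggbp1, all within 0.0047 of its pair of -0.31 and -0.080, and 436 genes lay within 0.1. Bcl2l11, at -0.74 and -0.019, had 81 genes within 0.1, the nearest being Frmd8, Ipp and Lrsam1. Large differences are rarer over all genes, so the lower count does not mark Bcl2l11 out.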

How the data were processed

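Per the labels' protocols, total RNA went into stranded libraries from which ribosomal RNA had been removed. The submitters' processing notes name mm10, bcl2fastq 2.20.0, HISAT2, StringTie and DESeq2 with no order. The authors deposited raw counts per gene in 2 tables, Female with Male and WT with KD. Annotation, counting rule and use of strand are not given in the sources used here. Of 55487 Ensembl identifiers, 55227 matched GENCODE M21, the source of symbols, lengths and coding bases; promoter windows are from RefSeq.

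Each table was fitted alone in edgeR 4.0.16 (R 4.3.3) with TMM scaling, filterByExpr, the quasi-likelihood test and Benjamini-Hochberg adjustment. Standard errors are the size of the log2 fold change over the square root of F. Ratios of counts had an exact permutation test (scipy 1.17.1). Alternatives were DESeq2 1.42.0, limma-voom 3.58.1, other size factors and filters, counts divided by 4, protein-coding genes only, summed Bcl2a1 copies, all 12 samples in 1 fit, a replicate block and leaving out each sample. All 10 members are named; of each other list, the 4 called genes with the smallest p, and any with 0 counts in a group; for likeness, the 3 nearest genes. Some genes that this rule names are not reported here. The members and lists were chosen with earlier results of these data known. Bax in Male against Female and Bik, Bok, Bcl2l2, Bbc3, Pmaip1, Fas and Tnfrsf10b in KD against WT were chosen after their values were seen. So were genes opposite a member and the grouping by role. On simulated counts, 68% of 200 genes changed by 1 log2 unit were called in Male against Female (19832 genes), with 5.56% of calls false. In KD against WT (20001 genes) these shares were 67% and 4.29%. The changed genes were drawn over all levels. They were far fewer than the genes called in the real data, so these rates do not measure the calls on members. Replicate numbers were known only from titles, so same-numbered samples were not treated as pairs. Their deviations over all tested genes, low ones included, had correlations from -0.056 to 0.031 and from -0.075 to 0.027. Such correlations cannot exclude pairing.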

Additional observations from a re-analysis of the deposited data

How the results depend on the processing

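The same 10 members were read under 11 other settings and with each of 6 samples left out per comparison. In Male against Female, 164 of 165 member values kept their direction and their side of the threshold, the exception being Bcl2a1d in the fit of all 12 samples, so that 7 members passed there against 6 elsewhere. In KD against WT, 161 of 166 did, and 6 members passed everywhere except with the Bcl2a1 copies summed, where 5 did. The 5 values that changed sign were all of members that did not pass: Bcl2l11 was 0.011 with upper-quartile factors, Bcl2a1b was -0.0028 with limma-voom, -0.011 without WT replicate 2 and -0.16 without KD replicate 3, and Bad was 0.011 without KD replicate 1. Leaving out KD replicate 2 took Bcl2a1b to 0.19 and Bad to -0.18, the far ends of their ranges. The cause was not tested. With the replicate number as a block, 9740 genes passed in Male against Female and 6688 in KD against WT, with 6 members in each, and no call on a member changed. Over the other settings 8546 to 10224 and 6536 to 7385 genes passed, and 9190 to 9399 and 6073 to 6685 with 1 sample left out. With 3 samples a group, the permutation test cannot go below 0.1. The Bcl2a1 copies, at 29 to 437 counts, have the widest errors of the members.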

Other observations

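More distant relatives of the family were measured beside the members. Bcl2l13, a mitochondrial outer membrane protein, was 101 CPM in Female and 77.5 CPM in Male (log2 fold change -0.38, adjusted p 4.98e-06), and 73.3 CPM in WT and 68.8 CPM in KD (-0.090, adjusted p 0.0805). Bcl2l12 did not pass in either comparison (adjusted p 0.218 and 0.315). Bnip3l was 97.7 CPM in Female and 93.7 CPM in Male and did not pass (adjusted p 0.131). Bcl2l14 was at or below 0.16 CPM on average in all groups, and Bcl2a1c had 0 to 6 counts per library. Transcripts of Bcl2 made up 0.124% of the scaled counts in Female, 0.0997% in Male, 0.0790% in WT and 0.0748% in KD.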
